A study of Mus musculus with 13 samples.

Results

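Skin tumours of G9a WT and G9a cKO mice were compared for 44 genes of the cornified envelope and of terminal epidermal differentiation. A gene was read where a probe set of the array carried its symbol as the only one, and where a gene had several probe sets the one with the highest mean over all arrays was used. Of the 44 genes, 40 were measured in this way, out of 17097 genes on the array. Flg2, Crnn, Lce1c and Lce3f had no probe set under this rule and were not analysed here.

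Each of the 13 arrays held total RNA of a squamous tumour, 6 from G9a WT and 7 from G9a cKO (conditional knockout) mice. G9a is a histone methyltransferase encoded by Ehmt2. All mice were 8 weeks old at the start, and the carcinogen DMBA (0.25 mg/ml) and the tumour promoter TPA (0.02 mg/ml), 200 µl of each in acetone, were put on the shaved back every week for 6 weeks, with TPA then continued for up to 20 weeks. Neither the promoter that drives the deletion nor the cells it acts in, the strain, or the number of mice behind the tumours is stated in the labels. The p-values therefore measure the spread between these samples only.

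The cornified envelope is the protein shell that replaces the plasma membrane when a keratinocyte dies at the skin surface. Involucrin and the plakins are laid down first, loricrin and the small and late envelope proteins are added later, and transglutaminases crosslink them. Filaggrin and its relatives pack the keratins, corneodesmosin holds the dead cells together, and lipids made by lipoxygenases and ceramide enzymes seal the spaces between them. Squamous tumours of the skin keep part of this programme, and well differentiated ones form keratin pearls.

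Many of these genes lie side by side. Of the 44 genes, 20 belong to the epidermal differentiation complex on chromosome 3, and 16 of those 20 were measured. The other 24 lie elsewhere, and all of them were measured.

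Stretches of promoter sequence are shown first because several envelope genes share a short word near their start. The window from 250 bases before to 50 bases after the start was available from RefSeq (GRCm38.p6) for 32 of the 40 measured genes, as 35 windows. The word TGANTCA, a looser form of the site of the TPA-responsive factor AP-1, was searched on both strands. It was present in 9 of the 35 windows (25.7%), against 2565 of 32851 windows of all genes (7.81%). Several members, such as Flg, Rptn and Tchhl1, are neighbours with alike stretches around the word. The windows are therefore not independent, and the difference in share was not tested. The strict AP-1 site, TGACTCA on either strand, was present in 5 of the 35 (14.3%), in Ivl, Lor, Scel, Sbsn and Krtdap, against 5.2% of all windows. The words in Flg, Rptn, Tchhl1 and Serpinb12 have another middle base and are not the strict site. The word TATAAA was present in 11 of the 35 windows (31.4%), against 13.6% of all windows. A grainyhead word, AACNNGTT, was present in 5.71% of the members' windows and 4.2% of all, and a KLF word, CACCC, in 60% and 57.5%. In 6 of the 9 genes with TGANTCA the stretch reads as follows, 5′ to 3′, with the word in capitals.

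Flg (chr3:93273426-93273466, plus strand): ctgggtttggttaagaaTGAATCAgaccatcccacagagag
Rptn (chr3:93393586-93393626, plus strand): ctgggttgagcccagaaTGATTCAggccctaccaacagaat
Ivl (chr3:92573828-92573868, minus strand): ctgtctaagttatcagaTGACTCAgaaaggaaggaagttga
Lor (chr3:92083167-92083207, minus strand): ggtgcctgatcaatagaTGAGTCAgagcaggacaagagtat
Krtdap (chr7:30787807-30787847, plus strand): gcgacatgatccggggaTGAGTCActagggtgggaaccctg
Sbsn (chr7:30751448-30751488, plus strand): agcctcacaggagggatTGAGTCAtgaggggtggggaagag

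The first base in capitals lies 103 bases before the start in Flg, 96 in Rptn, 116 in Ivl, 48 in Lor, 81 in Krtdap and 6 in Sbsn. Sbsn has a second match 119 bases before the start, and Tchhl1, Scel and Serpinb12 have 1 match each. A match is a word in a window and does not show that a factor binds there. Of the 9 genes, the 2 that passed the test of cKO against WT tumours, Rptn and Flg, are among those without the strict site, and neither passed with the pair term described next. Over all genes 45.8% passed, and 24.7% with that term.

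The values are log2 expression after RMA. Array medians lay between 5.09 and 5.14, and WT arrays were wider (SD of their probe sets 1.91 to 1.94) than cKO arrays (1.83 to 1.88), so the arrays do not share one distribution. Arrays that follow one another in the deposit mirrored each other around their group mean. Over all genes the correlation of their deviations lay between -0.956 and -0.88 in 6 pairs, and over the 30 brighter members between -0.967 and -0.895. With 7 cKO arrays 1 is left without a partner, and replicate 1 was taken as that one after its deviations were seen: its mean absolute deviation from the group mean over all genes was 0.0408, against 0.119 to 0.157 on the other arrays. Each gene was therefore tested with limma without and with a term for these neighbouring pairs, adjusted over all genes (Benjamini-Hochberg). The result with this pair term is given beside each member's call that it ended. The error in the fit with the term comes from differences within pairs, the mirrored part, and not from the spread between pair means. That fit therefore cannot decide whether a call holds against the spread between pairs. Nonspecific control probe sets differed between the groups by -0.307 to 0.082. The upper quartile of their means, 4.29, serves as the control level below which a value is called dim. These means ran from 3.05 to 6.17 and were mostly higher in controls richer in G and C bases. The base content of the members' probes was not taken into account. A value above 4.29 can thus still lie within the range of the controls. Of the 40 members, 30 had a mean at or above 4.29.

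Ehmt2 was measured by 2 probe sets. One fell from 8.33 ± 0.19 (SD, n = 6) to 6.01 ± 0.10 (SD, n = 7), and the other differed by 0.13 (limma adjusted p = 0.166 over all probe sets).

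Most of the differentiation genes did not pass the test of cKO against WT tumours. Of the 40 measured genes, 10 (25%) passed the limma test, 6 higher and 4 lower in cKO, while 45.8% of all genes passed, 25.7% higher and 20.1% lower. With the pair term 5 of the 40 passed, 1 higher and 4 lower, against 24.7% of all genes, 14.4% higher and 10.3% lower. Among the 30 brighter members 7 passed (23.3%), against 45.8% of all genes at or above the control level. The median log2 difference of the 40 was -0.04, that of all genes 0.02, and the members ranged from -0.72 (Alox12b) to 1.52 (Cdsn). Without regard to sign, the median difference was 0.22 for the members and 0.16 for all genes. The members also had a wider spread, with a median SD of 0.31 in WT and 0.32 in cKO tumours, against 0.12 and 0.099 for all genes. Their smaller called share therefore does not mean smaller differences. A change of more than 2-fold was called for 2 members, Cdsn and Tgm5, and for 1.78% of all genes. The values of the 2 groups did not overlap for 5 members (12.5%), against 23% of all genes. The means of the neighbouring pairs did not overlap for 33 members (82.5%) and for 79.2% of all genes.

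**Figure D1:**
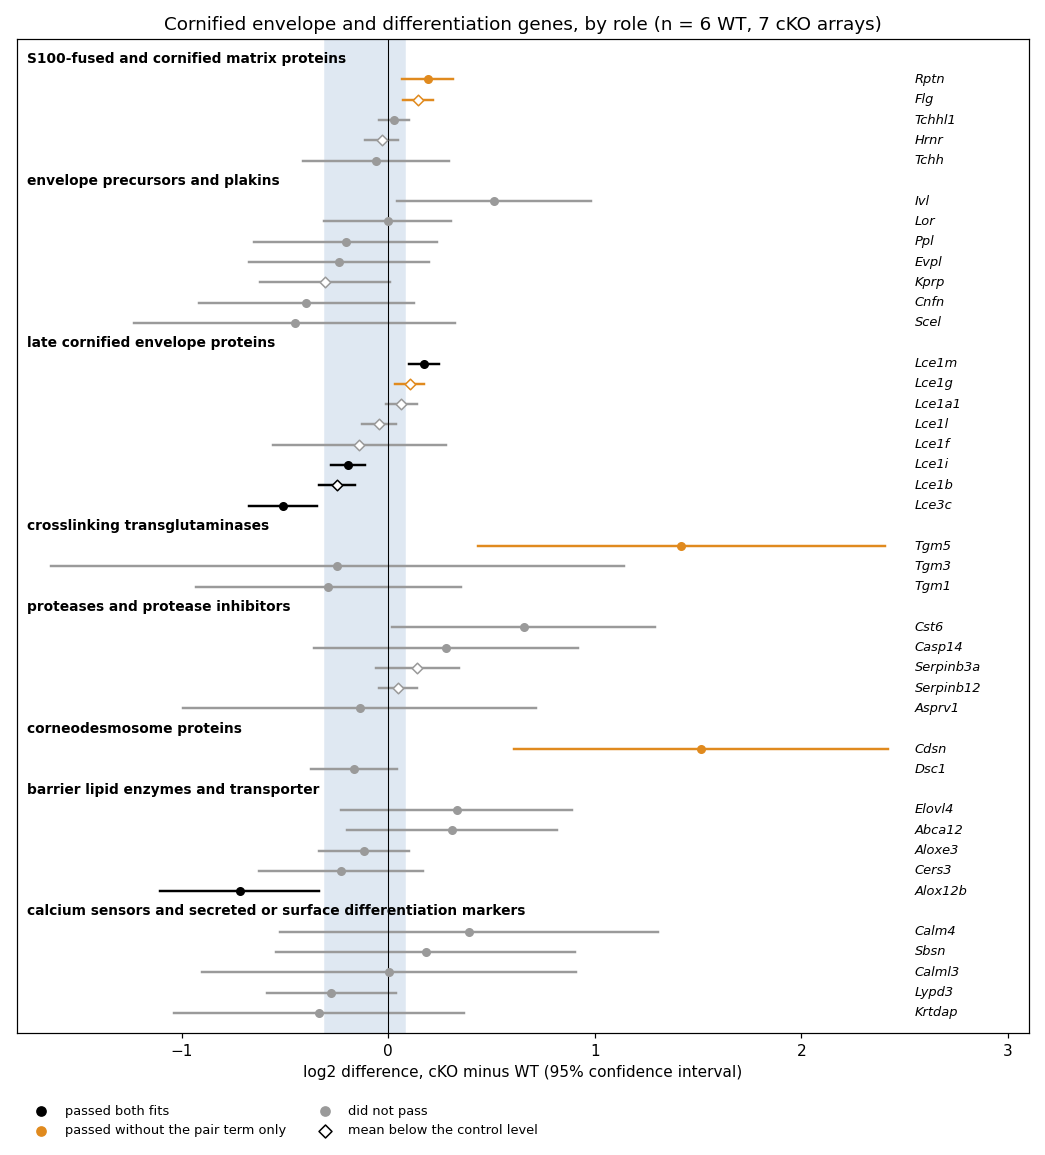
Log2 difference between cKO and WT tumours (x axis, cKO minus WT) for the 40 measured genes, grouped by role, with 95% confidence intervals from limma (6 WT and 7 cKO arrays). Black genes passed both fits, orange ones only the fit without the pair term and grey ones neither; open diamonds have a mean below the control level, and the shaded band spans the differences of nonspecific controls, -0.307 to 0.082.

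Corneodesmosin and a transglutaminase had the largest differences of the set. Cdsn encodes corneodesmosin, the adhesive protein of corneodesmosomes. Its lowest, median and highest values were 4.72, 5.37 and 6.51 in WT tumours and 6.12, 7.12 and 8.14 in cKO tumours. WT replicates 4 and 7 lay above the lowest cKO arrays, replicates 6 and 8, so the groups overlapped. The mean rose from 5.56 ± 0.79 to 7.08 ± 0.82 (SD, n = 6 and 7), a difference of 1.52 ± 0.42 (SE) or 2.86-fold (limma adjusted p = 0.0101). With the pair term the limma adjusted p was 0.0724. Had the pairs been counted so that cKO replicate 9 stood alone, it would have been 0.02, so this call turns on which array has no partner. The means of the neighbouring pairs were 5.37 to 5.71 in WT and 6.90 to 7.21 in cKO tumours, the lone array counted as its own pair. Dsc1, a desmosomal cadherin of the upper epidermis, differed by -0.17 (limma adjusted p = 0.173), and its second probe set by -0.21.

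Tgm5 encodes one of the transglutaminases that crosslink envelope precursors. It ran from 4.42 over a median of 5.52 to 7.25 in WT tumours and from 6.57 over 7.29 to 7.81 in cKO tumours. WT replicates 4 and 9, at 7.17 and 7.25, lay among the cKO arrays, and the other 4 WT arrays lay below all of them. The mean went from 5.78 ± 1.20 to 7.20 ± 0.47, a difference of 1.42 ± 0.46 (SE) or 2.67-fold (limma adjusted p = 0.0219). The limma adjusted p was 0.104 with the pair term and 0.0509 without WT replicate 2, where the difference was 1.22. Tgm1, the membrane-bound enzyme of the envelope, differed by -0.29 (95% interval -0.93 to 0.35) and did not pass. Tgm3 had the widest spread of the set, from 7.03 to 10.42 in WT and from 7.22 to 10.13 in cKO tumours, and differed by -0.25 (interval -1.63 to 1.14).

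**Figure D2:**
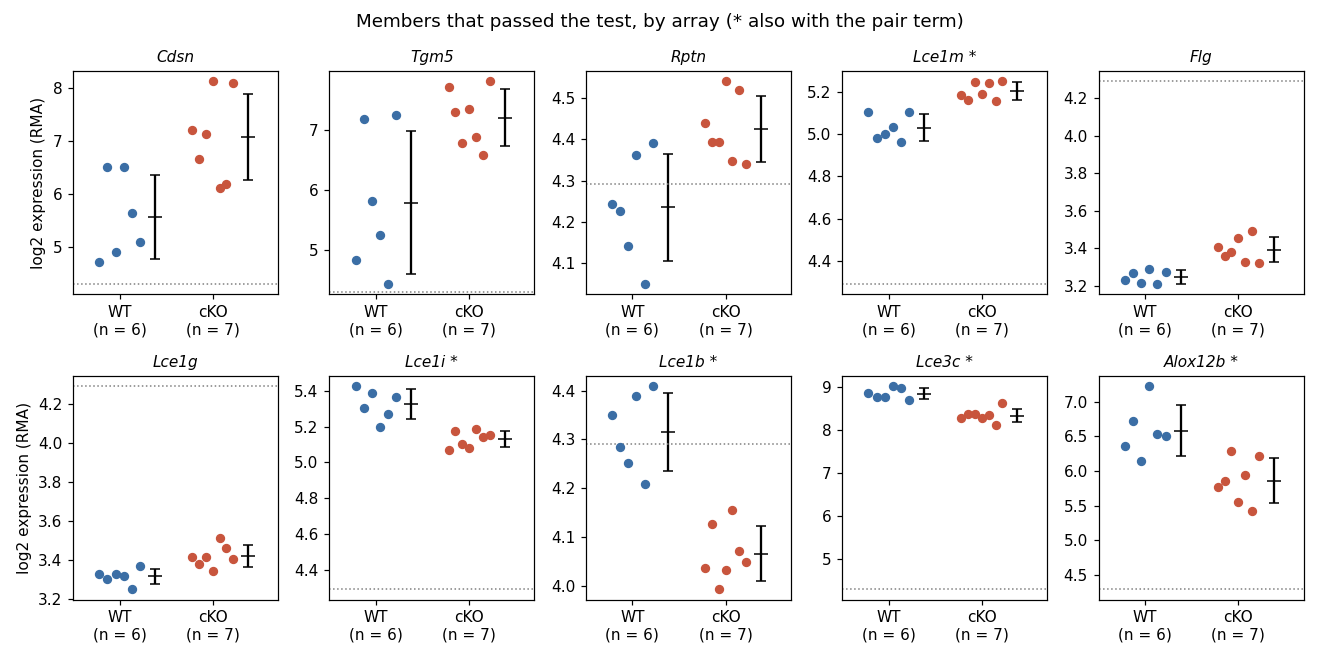
Log2 expression on each array (points; blue WT, n = 6; red cKO, n = 7) of the 10 members that passed the limma test, with mean and SD beside each group and the control level of 4.29 as a dotted line; each panel has its own y axis. An asterisk marks the 5 that also passed with the pair term: Lce1m, Lce1i, Lce1b, Lce3c and Alox12b; Cdsn and Tgm5 have the largest differences, and their groups overlap.

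The members that passed in both fits were a lipoxygenase and 4 late cornified envelope genes. Alox12b, whose enzyme oxidises linoleate in the skin ceramides, ran from 6.14 over a median of 6.52 to 7.22 in WT and from 5.42 over 5.85 to 6.29 in cKO tumours. The groups overlapped, with WT replicate 6 below the highest cKO arrays, replicates 3 and 9. Alox12b fell by 0.72 on the log2 scale, from 6.58 ± 0.37 to 5.86 ± 0.32, or 1.64-fold (limma adjusted p = 0.00543, and 0.0449 with the pair term). Its partner Aloxe3, which works on the product of Alox12b, differed by -0.12 (95% interval -0.33 to 0.10) and did not pass.

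The other genes of barrier lipids did not pass. Elovl4, which elongates very long fatty acids, differed by 0.33 on the probe set used and by -0.20 on another. The lipid transporter gene Abca12 differed by 0.31 (interval -0.20 to 0.82) and the ceramide synthase gene Cers3 by -0.23 (interval -0.63 to 0.17). Of these 5 lipid genes 1 (20%) was thus called, lower in cKO, against 45.8% of all genes.

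The late cornified envelope genes went both ways. Of the 10 listed, 8 were measured, and 5 of the 8 (62.5%) passed, against 45.8% of all genes, and 4 of the 8 with the pair term, against 24.7%. The 5 were Lce1m and Lce1g, higher, and Lce3c, Lce1b and Lce1i, lower in cKO, of which Lce1g was lost with the pair term. Lce3c, whose human relatives are induced in injured and psoriatic skin, fell by 0.51, from 8.85 ± 0.13 to 8.34 ± 0.15 (limma adjusted p = 0.000167, and 0.00965 with the pair term). Its 6 WT arrays lay between 8.70 and 9.03 and its 7 cKO arrays between 8.13 and 8.62, with no overlap. Lce1i fell by 0.19, from 5.33 ± 0.08 to 5.13 ± 0.05 (limma adjusted p = 0.00133), and Lce1m rose by 0.17, from 5.03 ± 0.06 to 5.20 ± 0.04 (limma adjusted p = 0.000942). Neither of these 2 genes had overlapping groups. Lce1b lay between 4.21 and 4.41 in WT and between 3.99 and 4.16 in cKO tumours. It was below the control level on 3 of 6 WT and on all 7 cKO arrays. With cKO values under 4.29 raised to 4.29 and WT values kept, Lce1b was 1.02-fold lower in cKO. With dim WT arrays too, this is not a minimum for a fall. The differences of Lce1b and Lce1i lie inside the range of nonspecific controls, -0.307 to 0.082, and that of Lce3c lies outside it. The difference of Lce1m is larger than that of any control in its direction. The levels of Lce1i and Lce1m lie within the range of control means, 3.05 to 6.17.

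The remaining members of this family were at or below the control level. Lce1g (0.10, limma adjusted p = 0.0171, and 0.135 with the pair term), Lce1a1 (0.06) and Lce1l (-0.05) lay below the control level on all arrays of both groups. Lce1f was dim on 3 of 6 WT and 5 of 7 cKO arrays, and differed by -0.14 on the probe set used and by 0.16 on another, which passed (limma adjusted p = 0.00096 over all probe sets, and 0.0351 with the pair term). A second probe set of Lce1a1, at 0.18, passed without the pair term (limma adjusted p = 0.00314 over all probe sets) and not with it (0.0511). These genes are close copies of one another. The probe sets of Lce3c, Lce1i and Lce1a1 carry the manufacturer's suffix for probes that may bind other transcripts, and that of Lce1m the suffix for a set shared by several transcripts, so signal could be divided between copies.

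The 100 bases before the start of the 4 late envelope genes that passed both fits are shown because these members passed both fits. Capitals mark the word ATAAAA, or TATAAA where its first letters are there, searched on both strands; the words overlap. The shorter word, added after the sequences were seen, is present in 18.5% of all windows and in 37.1% of the windows of measured members.

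Lce3c (chr3:92944386-92944485, plus strand): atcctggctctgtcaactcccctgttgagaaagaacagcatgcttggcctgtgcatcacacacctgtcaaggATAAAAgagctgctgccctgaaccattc
Lce1b (chr3:92656927-92657026, minus strand): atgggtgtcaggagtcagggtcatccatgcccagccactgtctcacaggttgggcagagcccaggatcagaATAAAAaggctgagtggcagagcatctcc
Lce1i (chr3:92778900-92778999, minus strand): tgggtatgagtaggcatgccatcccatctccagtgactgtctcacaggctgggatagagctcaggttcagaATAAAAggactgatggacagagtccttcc
Lce1m (chr3:93019062-93019161, minus strand): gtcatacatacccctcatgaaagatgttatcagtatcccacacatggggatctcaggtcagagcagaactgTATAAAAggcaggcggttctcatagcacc

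The longer word stands in Lce1m 29 bases before its start, and Lce1b, Lce1i and Lce3c have only the shorter one, 28 or 29 bases before theirs. Among these genes Lce1m was called higher and the others lower. Lce1g, below the control level on all arrays and called higher only without the pair term, has only the shorter word, 29 bases before its start. Whether the words bear on the direction of the calls was not tested. None of the 4 windows shown holds TGANTCA. Likeness of the windows was compared as well, and whether it bears on the direction was not tested. Windows of unrelated genes were not aligned, so the shares below have no baseline. In global alignments Lce1g (higher) and Lce1i (lower) shared 86% of aligned positions, Lce1b and Lce1i (both lower) 65.7%, and Lce3c (lower) 54.4% with Lce1b and 52.7% with Lce1i, beside 55.1% and 52.7% for Lce1m.

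Envelope precursors and plakins did not pass the test, although their spread was wide. Ivl encodes involucrin, a scaffold of the early envelope. It ran from 6.71 over a median of 7.32 to 7.80 in WT and from 7.17 over 7.73 to 8.23 in cKO tumours, and the groups overlapped over most of their range. The difference was 0.51 ± 0.22 (SE) with a limma adjusted p of 0.0694, and a second probe set differed by 0.59. With arrays quantile-normalized the difference was 0.64 (limma adjusted p = 0.0317). The plakin genes Evpl and Ppl, whose proteins tie the envelope to keratins and desmosomes, differed by -0.24 and -0.21. Cnfn, the gene of cornifelin, differed by -0.40 and Scel, the gene of sciellin, by -0.45, with a second Scel probe set at 0.07. With Lor and Kprp, described next, this group has 7 genes. None passed limma, against 45.8% of all genes, and Ivl was the 1 with an unadjusted p under 0.05. Of all 17097 genes, 5003 were higher and 4045 lower at such a p.

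Loricrin and filaggrin, the main proteins of the mature envelope and of the granular layer, were near or below the control level. Lor lay between 4.11 and 5.19 in WT and between 4.28 and 4.70 in cKO tumours, with equal means of 4.47. Lor was highest on WT replicate 7. Flg lay below the control level on all 13 arrays, so its difference of 0.15 gives no fold. That difference passed limma (adjusted p = 0.00348), but not with the pair term (adjusted p = 0.0601); with cKO replicate 9 alone instead, the adjusted p was 0.0322. Rptn, the repetin gene, was dim on 4 of 6 WT arrays and differed by 0.19 (limma adjusted p = 0.0161, and 0.105 with the pair term), and its 2 other probe sets differed by 0.09 and 0.10. Hrnr was dim on all arrays, and Tchh (-0.06) and Tchhl1 (0.03) did not pass. Kprp, at -0.31, was dim on 4 of 6 WT and 6 of 7 cKO arrays. Tchh, which encodes trichohyalin of the hair inner root sheath, ran from 4.18 to 5.06 in WT tumours.

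Proteases and their inhibitors did not pass either. Cst6 encodes cystatin M/E, an inhibitor of cathepsins in the upper epidermis. It was tightly grouped in WT tumours, from 6.60 over a median of 6.64 to 6.95, and wide in cKO tumours, from 6.42 over 7.36 to 8.64. Of the 7 cKO arrays, replicates 1, 2, 5 and 9 lay above all WT arrays and replicate 6 below them. The difference was 0.66 ± 0.29 (SE, limma adjusted p = 0.0852). Without cKO replicate 6 it was 0.81 (limma adjusted p = 0.0284). Casp14, a protease that takes part in breaking down filaggrin, differed by 0.28 (interval -0.36 to 0.92), and Asprv1, an aspartic protease that processes profilaggrin, by -0.14 (interval -0.99 to 0.72). The serpin genes Serpinb12 and Serpinb3a lay below the control level on all arrays. Of these 5 genes none passed limma, against 45.8% of all genes. An unadjusted limma p under 0.05 was found for 1 of them (Cst6). Of all 17097 genes, 5003 had such a p and were higher, and 4045 had one and were lower.

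Markers of the spinous and granular layers were bright and did not pass the test. Lypd3, a surface protein of suprabasal cells, went from 11.04 ± 0.16 to 10.76 ± 0.34, Sbsn (suprabasin) from 10.07 ± 0.39 to 10.25 ± 0.80 and Krtdap, a secreted differentiation marker, from 9.35 ± 0.23 to 9.02 ± 0.82. Sbsn had 3 probe sets, with differences of 0.18 to 0.45. The calcium binding protein gene Calm4 differed by 0.39 (interval -0.53 to 1.31) and Calml3 by 0.003 (interval -0.90 to 0.91). None of these 5 genes passed limma, against 45.8% of all genes, and none had an unadjusted p under 0.05. Of all 17097 genes, 5003 were higher and 4045 lower at such a p.

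Among the cKO arrays many of these genes went up and down together. Of the 30 brighter members, 20 were highest among cKO arrays on replicate 5 or 9, and 19 were lowest on replicate 6 or 8. Their mean level was 7.19 and 7.26 on cKO replicates 5 and 9, 6.46 and 6.34 on replicates 6 and 8, and 6.79 to 6.88 on the other cKO arrays. On WT arrays it lay between 6.63 and 6.91. Replicate 9 was above the cKO mean for 27 of the 30 members and replicate 8 for 3 of them. The order is not particular to the members. Regulators of terminal differentiation, listed below, had means of 8.37 and 8.36 on replicates 5 and 9, and 7.53 and 7.40 on 6 and 8. Small proline-rich genes had 8.05 and 8.05 against 6.83 and 6.59. Means of the fibroblast, leukocyte and endothelial markers went otherwise, and were higher on replicate 6 than on 5 and 9.

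Single genes show the same order. Krtdap read 9.84 and 9.83 on cKO replicates 5 and 9 and 7.92 and 7.95 on replicates 6 and 8, while its WT arrays lay between 8.97 and 9.62. Sbsn read 11.17 and 11.16 on replicates 5 and 9 and 9.28 and 9.16 on replicates 6 and 8. Calm4 read 8.53 and 9.02 against 6.90 and 6.54, with 8.80 on replicate 2. Ivl went otherwise, with its highest cKO values on replicates 3 (8.23) and 6 (8.17). Tgm3 read 9.1 and 9.6 on replicates 5 and 9 against 7.6 and 7.2 on replicates 6 and 8. Its highest cKO value was on replicate 2 and its lowest on replicate 3. Replicates 5 and 6, and 8 and 9, are neighbouring pairs that mirror each other over all genes, so these 4 arrays are not 4 separate readings of high and low. The part of the mirroring in this order was not tested.

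**Figure D3:**
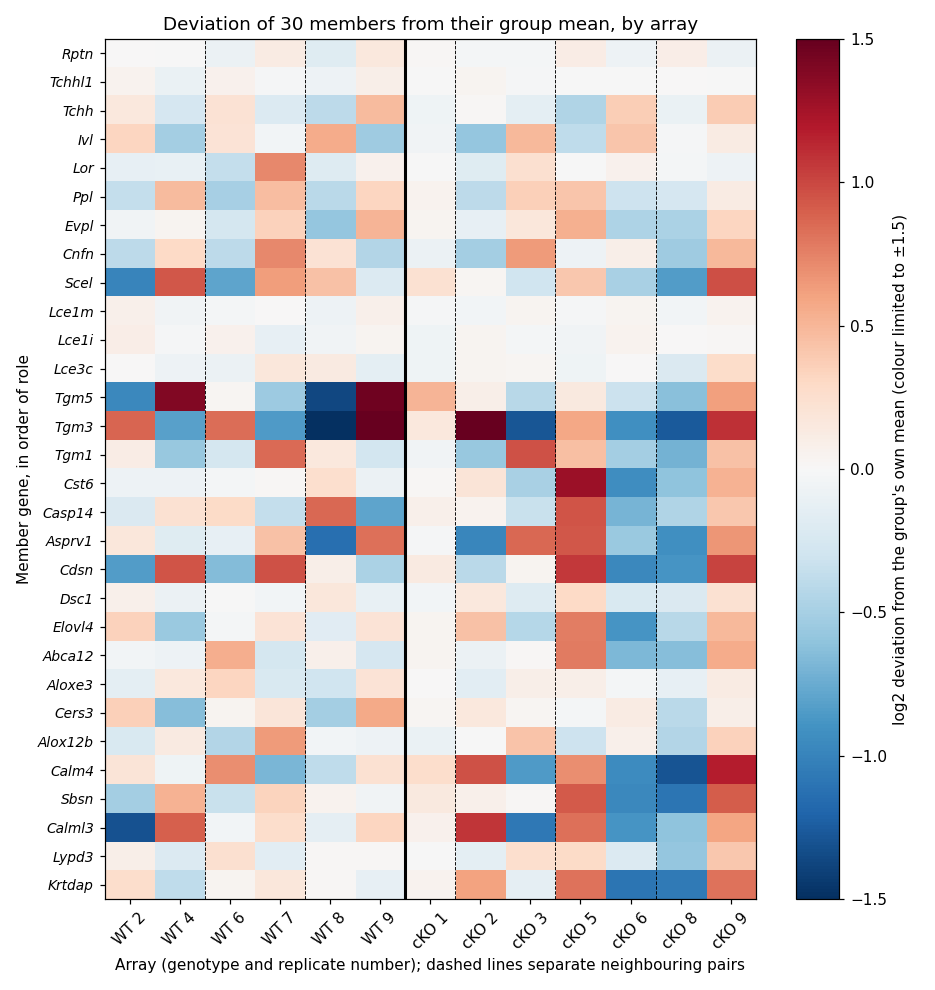
Deviation of 30 members (rows, ordered by role) from the mean of their own group on each array (columns), as a log2 difference; red is above and blue below the group mean, the solid line separates WT from cKO and dashed lines separate neighbouring pairs. Cdsn, Calm4, Sbsn and Krtdap are red on cKO 5 and 9 and blue on cKO 6 and 8, and cKO 1, which has no partner, is pale apart from Tgm5.

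The spread of some members differed by group. The SD over cKO arrays was more than 2 times that over WT arrays for 6 of the 30 brighter members (20%), namely Cst6, Krtdap, Dsc1, Lypd3, Calm4 and Sbsn, and for 4.95% of all genes at or above the control level. It was less than 0.5 times the WT value for 5 members (16.7%), Tchhl1, Lor, Cers3, Tgm5 and Aloxe3, and for 14.6% of all such genes. The ratio was 5.83 for Cst6 and 3.58 for Krtdap. These counts are a description, since mirrored arrays do not give independent readings of a spread.

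**Figure D4:**
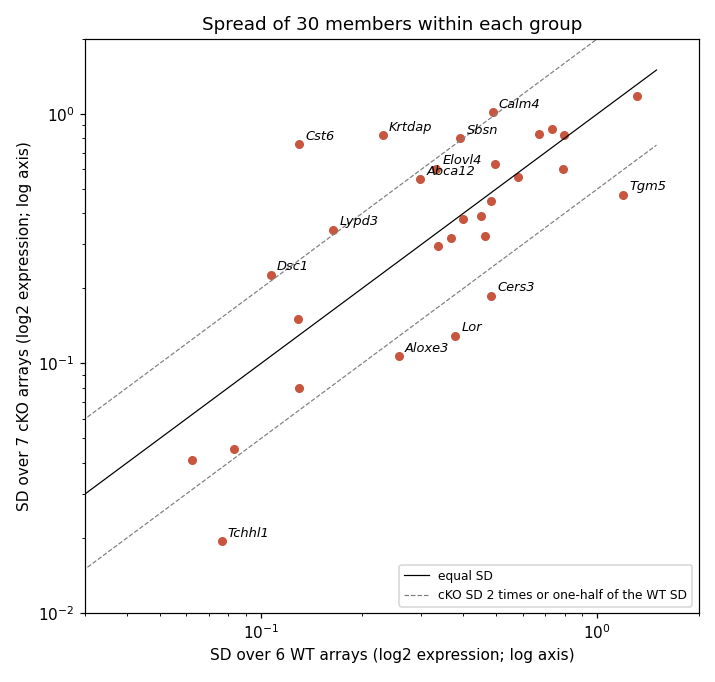
SD of log2 expression over 6 WT arrays (x axis) and 7 cKO arrays (y axis) for 30 members, both on log axes; the solid line marks equal SD and dashed lines a ratio of 2 or 0.5. Cst6 and Krtdap lie farthest above the line, with ratios of 5.83 and 3.58, and Tchhl1 and Lor lie below it.

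Other genes of the same programme, from lists chosen for this comparison, had called shares of 0% for suprabasal keratins, 11.1% for regulators, 28.6% for further lipid genes and 50% for small proline-rich genes, beside 45.8% of all genes. Of 6 suprabasal keratin genes none passed limma and 1 had an unadjusted p under 0.05. Of all 17097 genes, 5003 were higher and 4045 lower at such a p. Krt1, an early suprabasal keratin, went from 8.14 ± 0.92 to 8.61 ± 1.66. Of 18 measured regulators of terminal differentiation 1 was higher and 1 lower (1 and 0 with the pair term). Pou2f3, a POU factor of suprabasal cells, rose from 4.41 to 5.41 (limma adjusted p = 0.000524, and 0.0142 with the pair term), and Grhl3, a grainyhead factor that directs barrier formation, went from 8.24 to 7.56 (limma adjusted p = 0.0121, and 0.0629 with the pair term). Of 14 other barrier lipid genes 2 were higher and 2 lower (1 and 0 with the pair term), and Smpd1, the acid sphingomyelinase gene, rose by 0.35 in both fits. Ugcg, the glucosylceramide synthase gene, differed by -0.84 (limma adjusted p = 0.0111, and 0.077 with the pair term). Of 10 small proline-rich genes 4 were lower and 1 higher (3 and 0 with the pair term), with a median of -0.80, and Sprr1b, an envelope precursor induced by stress, fell by 1.23 (limma adjusted p = 0.00245, and 0.035 with the pair term). The difference between these lists and the 40 members was not tested.

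Among markers of cell types, the called share was 75% for fibroblasts, 66.7% for endothelium, 50% for leukocytes, 42.9% for hair and 37.5% for basal keratinocytes, beside 45.8% of all genes. Of 8 basal keratinocyte markers 1 was higher and 2 lower (1 and 0 with the pair term). Their mean level lay between 11.00 and 11.34 on WT and between 10.89 and 11.31 on cKO arrays, and all 8 genes had a mean above the control level. Within cKO, this mean was 11.31 and 11.28 on replicates 5 and 9 and 10.89 and 11.00 on replicates 6 and 8. On replicates 1, 2 and 3 it was 11.18, 11.24 and 10.95, so replicate 3 lay below replicate 8. Of 8 fibroblast markers 6 were higher in cKO and none lower, with mean levels of 4.39 to 5.28 on WT and 5.85 to 6.44 on cKO arrays. Of 6 endothelial markers 4 were higher and none lower, and of 8 leukocyte markers 4 were higher and none lower. With the pair term 6 fibroblast, 3 endothelial and 3 leukocyte markers were higher. A mean at or above the control level was reached by 4 of 8 fibroblast, 4 of 8 leukocyte and 5 of 6 endothelial markers. Ptprc, the pan-leukocyte gene, and Col1a2, a collagen gene, each read by 1 probe set, lay below the control level in both groups. Other markers of the same lists did not: Col1a1 went from 6.25 in WT to 9.19 in cKO tumours, and Cd53 from 4.44 to 7.39. The leukocyte markers Adgre1 and Itgam, called higher, lay below it on all 6 WT arrays and on 4 and 3 cKO arrays. Of 7 measured hair markers 3 were higher, by 0.07 to 0.34. Krt73 and Krt27 also passed with the pair term, and Krt35, below the control level on all 13 arrays, did not. The part of these cells in the differences of Cdsn, Tgm5, Alox12b and Lce3c was not tested, and in whole tumours fewer cells of a type and less RNA per cell cannot be told apart.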

How the data were processed

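Total RNA from 13 tumours (25 ng each, 17 cycles of amplification) was labelled with biotin and measured on arrays, per the labels' protocols. The authors deposited 1 log2 value per probe set and array, made with RMA per the submitters' processing notes. Neither its version nor any further step is stated there.

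Of 45141 probe sets, 28898 had 1 gene symbol in the platform annotation, 551 had several and 15692 (array controls included) had none. All 44 symbols were found in RefSeq (GRCm38.p6), which served for neighbourhood and promoters only. Groups and replicate numbers came from the sample titles.

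For each of 17097 genes the cKO mean was set against the WT mean by lmFit and eBayes (limma 3.58.1, R 4.3.3), two-sided, without covariate or filter, at a Benjamini-Hochberg threshold of 0.05. The pair term gives each neighbouring pair (WT 2-4, 6-7, 8-9; cKO 2-3, 5-6, 8-9) its own mean. This pairing replaced a count from the first cKO array after the deviations were seen, and that count is kept as an added alternative. The fits were tested on simulated data with independent arrays. These held no mirrored pairs, so they cannot show how the fits behave under mirroring. Members, lists, tests and alternatives were chosen with earlier results of these data known. The named genes were all measured members, Ehmt2 and up to 4 genes of each list by smallest p. Ptprc, Col1a2 and Col1a1 were added after their values were seen. Alternatives were quantile normalization, the pair term, both together, the replicate block, the mean over probe sets, a filter on dim genes, a trended robust prior and leaving out each array. No array values were left out. The number of arrays limits the precision. Alignments used Biopython 1.88 and figures matplotlib 3.10.9.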

Additional observations from a re-analysis of the deposited data

Results flagged for a closer look

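In 3 of 80 combinations of member and group, 1 array stood apart from the others by its gap to the nearest value. Chance gives about 1 such gap in 20 groups. Cst6 read 6.95 on WT replicate 8, while the other WT arrays lay between 6.60 and 6.72. Cers3 read 4.67 on cKO replicate 8, where the next value was 5.04. Tchhl1 read 4.73 on cKO replicate 2, where the next value was 4.69. No cause of these gaps was tested.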

How the results depend on the processing

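Of the 6 members called higher, 1 (Lce1m) stayed called with the pair term and 0 with quantile normalization and the pair term together, where limma gave 3 members higher at an unadjusted p under 0.05. The 4 called lower stayed called in both. With cKO replicate 9 as the array without a partner, chosen after seeing the data, 3 members stayed higher (Cdsn, Flg and Lce1m) and 4 lower, with 5681 genes called in place of 4228. The replicate block, fitted on the 8 arrays whose replicate numbers occur in both groups, called 1 member higher (Tgm5) and 1 lower (Evpl). Same-numbered arrays did not deviate together (correlations of -0.298 to 0.0491), so the numbers were not taken as pairs. Among members that passed no test, the direction turned for Asprv1 after quantile normalization (0.0035, and 0.0035 with the pair term), for Lce1f with the mean over probe sets (0.0081) and for Lor with the replicate block (0.10). Leaving out single arrays gave differences from -0.36 to 0.029 for Asprv1, -0.26 to 0.18 for Calml3, -0.074 to 0.14 for Lor, -0.14 to 0.037 for Tchh and -0.59 to 0.088 for Tgm3, with no call. Ivl passed after quantile normalization and without WT replicate 8 or cKO replicate 2, and Kprp without cKO replicate 5. Leaving out 1 array gave 5 to 7 members higher and 4 or 5 lower. The median of the members lay between -0.09 and 0.03, and was above 0 only without WT replicate 9. Cst6 passed without cKO replicate 6 and Lce1a1 with the mean over probe sets; Tgm5 was lost without WT replicate 2 and Lce1g after quantile normalization. Of the related lists, the pair term left 1 other lipid gene higher and 0 lower, 0 regulators lower and 0 small proline-rich genes higher, and quantile normalization gave 2 regulators higher. Values near the control level limit what can be said of 10 members. The cause of the changes was not tested.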
